A study of Caenorhabditis elegans with 2 samples.

Results

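The worm epidermis and the timing genes that schedule its divisions were examined for enrichment of ZTF-11, a MYT1-family zinc finger protein, in Caenorhabditis elegans L2 larvae. The 37 members are protein-coding genes taken from a list of names, of 19973 on the nuclear chromosomes. They comprise 26 genes of epidermal and seam cells and 11 heterochronic genes. Chromatin immunoprecipitation and sequencing was done on whole larvae of pooled sex from strain OP236, whose genotype is unc-119(ed3) III with the integrated transgene wgIs236. The transgene expresses ZTF-11 with GFP-FLAG at its C terminus. There was 1 group of 2 biological replicates, without a second condition. Age is given as unknown, and the labels do not name the promoter that drives the fusion.

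The larval epidermis of the worm consists of a large syncytium and a row of seam cells on each side, which divide as stem cells at each larval stage and make the cuticle. GATA factors, nuclear receptors, Runx and engrailed-type regulators give these cells their identity. Collagens, hedgehog-related proteins and junction proteins build the surface. The heterochronic genes tell seam cells which larval stage they are in. LIN-14, LIN-28 and HBL-1 promote early fates and are lowered by microRNAs, the nuclear receptor DAF-12 links the L2 to L3 change to hormone, and LIN-29 starts the adult programme. Because the larvae were used whole and the assay measures DNA, the cells in which a region was occupied are not known.

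Each value below is the authors' score of an enriched region, which is set against a control and has no stated scale. Scores are comparable within a list, not between lists. The pooled list of both replicates had 20201 nuclear regions, with a lowest score of 9.17, a median of 11.7 and a top 10% that began at 17.3. The authors' thresholded set kept 188 nuclear peaks, from 32.9 upwards. The lists of replicate 1 and replicate 2 each held 29974 nuclear regions, with medians of 6.62 and 5.58. Mapped reads, and so the depth, are unknown. A gene without a region in a list was below what that list kept, which is not a measured 0. A region was given to a gene when its summit lay between 1500 bp upstream of the 5′ end and the gene end. Genes and regions are not replicates of a condition, so the lists are described by counts beside those of all genes, without a p-value.

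In the pooled list, heterochronic genes held the strongest regions among the members, and epidermal genes held none of comparable score. In replicate 1, lin-41 (28.8), daf-12 (26.5) and lin-66 (15.7) were highest, followed by the epidermal gene egl-18 (13.6, percentile 97.2). The epidermal gene bro-1 (11.8, percentile 94.2) was above lin-14 (11.2) there. In replicate 2 the highest epidermal gene was lin-26 (10.5, percentile 95.1), below the 16.3 of daf-12. All 11 heterochronic genes and 13 of 26 epidermal genes had a pooled region in the gene window, against 51.3% of all genes. A region of the top 10% lay at 5 of 11 heterochronic genes and 1 of 26 epidermal genes, against 9.03% of all genes. A thresholded peak lay at 2 heterochronic genes, daf-12 and lin-41, and at 0 epidermal genes, against 1.12% of all genes. The share of epidermal genes with any pooled region was thus near the background. In lists of the same length from 1 replicate it was above it, with 18 of 26 genes in replicate 1 against 53.8% of all genes and 21 in replicate 2 against 53.5%. Heterochronic genes with a region then numbered 11 of 11 in replicate 1 and 9 of 11 in replicate 2. In replicate 2 both groups were thus near equal, at 80.8% of epidermal and 81.8% of heterochronic genes. With 500 bp upstream in place of 1500 bp, 3 heterochronic genes had a region of the top 10% (against 6.96% of all genes) and 1 a thresholded peak (against 0.776%). Heterochronic genes are long, with a median window of 10.7 kb against 4.89 kb for the epidermal and 3.53 kb for all genes. Among the 1200 genes with a window of at least 10.7 kb, a limit chosen after the values were seen, 92.5% had a pooled region, 28.7% one of the top 10% and 3.0% a thresholded peak. These 1200 genes are longer than the heterochronic ones, with a median window of 14.2 kb. The windows of lin-41, lin-66, hbl-1, lin-28 and lin-46 are shorter than the limit.

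**Figure D1:**
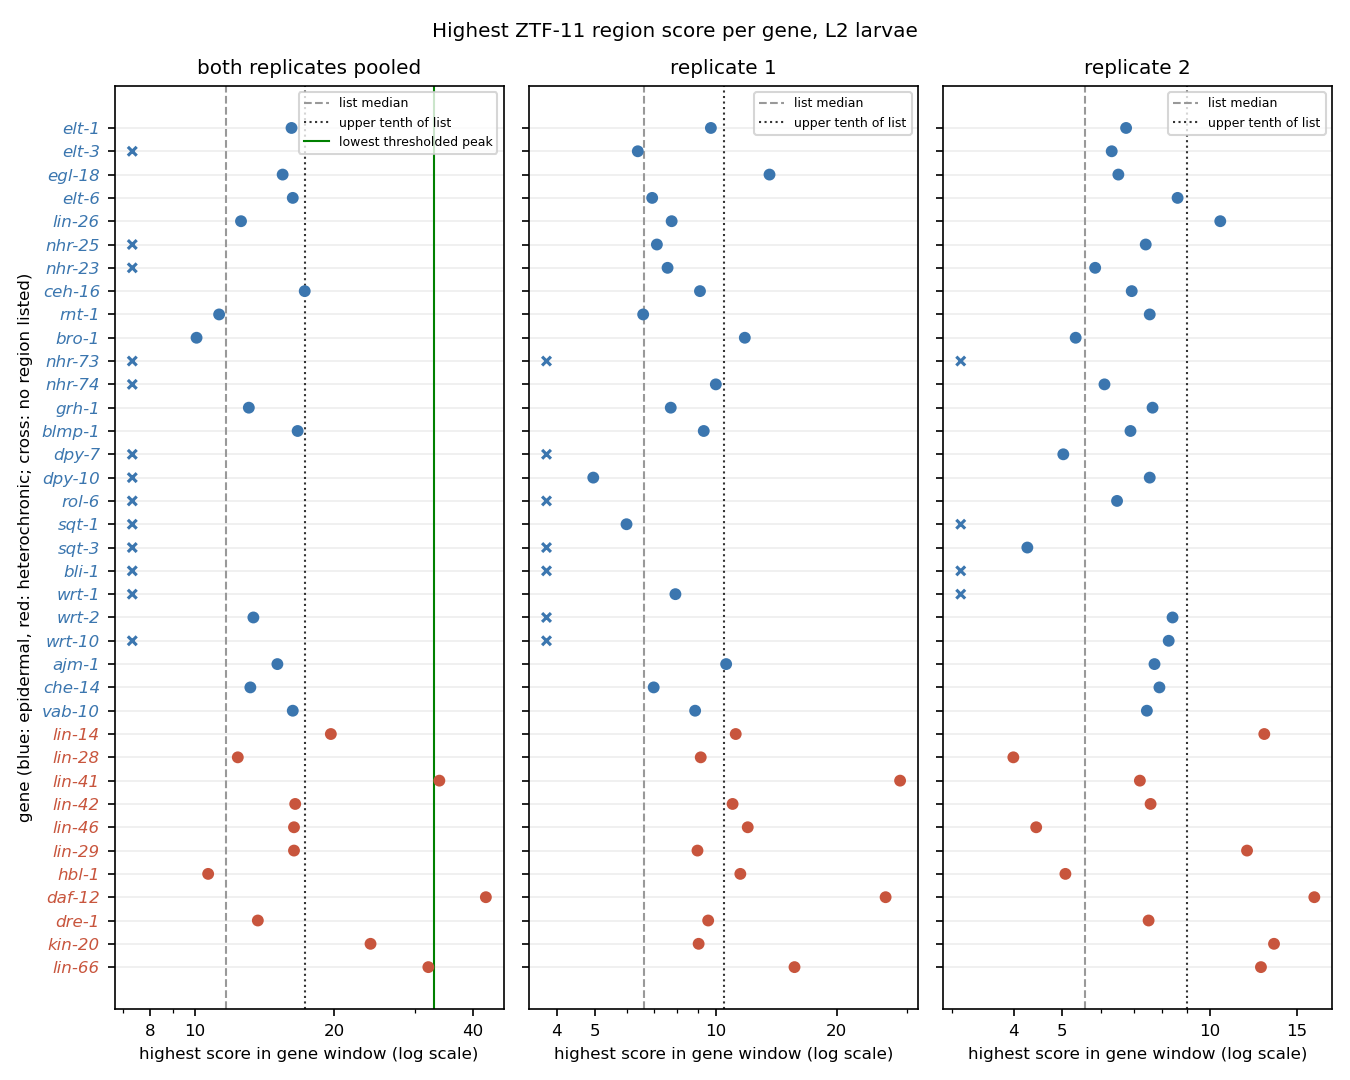
Highest region score in the window of each of the 37 genes (horizontal log axes) in the pooled list, replicate 1 and replicate 2; crosses mark genes without a listed region, and lines mark the list median, the start of the top 10% and the lowest thresholded score. In the pooled list daf-12 (42.6) and lin-41 (33.8) lie past 32.9, lin-66 (32.0) just short of it, and the highest epidermal gene is ceh-16 (17.3).

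The sequences within 50 bp of the summits show what the strong regions looked like. They are given for the regions of the top 10% at daf-12, lin-66, kin-20 (2 regions), lin-14 and ceh-16, from the RefSeq sequence of WBcel235 (ce11) on the strand of the gene. Capitals mark any copy, on either strand, of a 6-base motif. The motifs searched were GCGCGA, with the alternative AGAGAG, and the zinc finger core AAAGTT, all named by earlier results of these data.
daf-12, chrX:10637566-10637666, plus strand: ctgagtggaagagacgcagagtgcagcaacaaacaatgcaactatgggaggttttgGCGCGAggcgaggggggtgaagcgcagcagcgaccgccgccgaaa
lin-66, chrIV:13887524-13887624, plus strand: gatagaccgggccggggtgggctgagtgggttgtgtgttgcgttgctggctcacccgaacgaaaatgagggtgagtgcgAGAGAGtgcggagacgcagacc
kin-20, chrX:15275359-15275459, minus strand: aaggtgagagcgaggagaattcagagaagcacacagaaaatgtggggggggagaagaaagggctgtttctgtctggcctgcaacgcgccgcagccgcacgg
lin-14, chrX:11474218-11474318, plus strand: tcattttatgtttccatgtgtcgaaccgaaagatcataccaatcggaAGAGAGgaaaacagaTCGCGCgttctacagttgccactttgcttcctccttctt
kin-20, weaker region, chrX:15274670-15274770, minus strand: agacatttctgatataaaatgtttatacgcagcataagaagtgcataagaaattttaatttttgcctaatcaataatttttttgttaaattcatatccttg
ceh-16, chrIII:8624459-8624559, plus strand: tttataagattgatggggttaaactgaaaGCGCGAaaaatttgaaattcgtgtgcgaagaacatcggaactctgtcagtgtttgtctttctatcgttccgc

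The strongest of these windows were rich in G and C. GC content was 60.4% at daf-12, 62.4% at lin-66 and 58.4% at the stronger kin-20 summit, against 33.6% ± 9.25 (SD) over all 20201 nuclear pooled regions. Only 0.446% of those regions were as GC-rich as the daf-12 window, 0.228% as the lin-66 window and 0.891% as the kin-20 window. The lin-14 window was at 43.6%, ceh-16 at 39.6%, and the weaker kin-20 window at 23.8%, below the mean of all regions. GCGCGA was present at daf-12, lin-14 and ceh-16 and in 1.58% of all nuclear pooled regions. AGAGAG was present at lin-66 and lin-14 and in 5.26% of all such regions. The motif AAAGTT, a core that MYT1-type zinc fingers bind, was in none of these windows and in 20.1% of all regions. The window of lin-41, whose sequence is not shown, had a GC content of 48.5% and none of the 3 motifs. In the 188 thresholded peaks the mean GC content was 48.8% ± 8.03 (SD), and AAAGTT was in 3.72%, GCGCGA in 15.4% and AGAGAG in 26.6%. Over every pooled region of the members, AAAGTT was found in 9 of 38 epidermal and 7 of 48 heterochronic windows, GCGCGA in 3 and 2, and AGAGAG in 1 and 6. Mean GC content was 35.1% ± 9.50 (SD, n = 38) in the epidermal and 39.1% ± 12.2 (SD, n = 48) in the heterochronic windows.

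daf-12 (WBGene00000908, X, 10635908 to 10666875, plus strand), which encodes the nuclear receptor for dafachronic acids, carried the highest score of the 37 genes. Its thresholded peak had the summit in an intron, 1708 bp downstream of the 5′ end, and scored 42.6, rank 76 of the 20201 nuclear pooled regions. The same place scored 26.5 in replicate 1 and 16.3 in replicate 2. It was the highest region of the gene in all 3 lists, with summits at 1708, 1732 and 1704 bp. No other gene's window held it, and daf-12 was the gene with the nearest 5′ end. The other 6 pooled regions of daf-12, spread over its long introns, scored from 9.75 to 13.9, none of the top 10% and none held by both replicates.

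lin-66 (WBGene00001562, IV, 13888079 to 13893986, plus strand), a heterochronic gene that acts by lowering LIN-28, had its highest region in the same place in all 3 lists. Its highest region, 505 bp upstream of the 5′ end, scored 32.0, which is rank 201 and just below the lowest thresholded peak at 32.9. It scored 15.7 in replicate 1 and 12.7 in replicate 2, at percentiles 98.5 and 98.0 of their lists. A second lin-66 region in the 3′ UTR scored 16.8 pooled, 9.60 in replicate 1 and 4.30 in replicate 2.

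lin-41 (WBGene00003026, chromosome I, 9334800 to 9342496, minus strand), which encodes the TRIM-NHL protein that let-7 lowers, was the other gene with a thresholded peak. The summit lay 1469 bp upstream, near the outer limit of the window, and scored 33.8 (rank 174). Replicate 1 scored 28.8 there and replicate 2 listed no region. This thresholded peak was thus listed in 1 of the 2 replicates, while lin-66, below the threshold, was listed in both. Of the 188 thresholded nuclear peaks, 181 were held by both replicates. A second lin-41 region in the 3′ UTR scored 14.6, and was held by replicate 2 (7.21) but not by replicate 1.

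kin-20 (WBGene00002203, X, 15268602 to 15277764, minus strand), which encodes a casein kinase 1 related to Doubletime, had 2 intronic regions of the top 10%. The stronger, 2355 bp downstream of the 5′ end, scored 24.0 pooled, 9.05 in replicate 1 and 13.5 in replicate 2. Within the replicate lists, this stronger region stood at percentile 81.6 in replicate 1 and 98.5 in replicate 2, whereas the highest daf-12 region stood at 99.8 and 99.3. The weaker, 3044 bp downstream, scored 17.4 and no region of either replicate held its summit. The remaining region, in the 3′ UTR, scored 9.57 pooled and 4.42 in replicate 2. Its 11.1 in replicate 1 was above the 9.05 of the stronger region and in the top 10% of that list (from 10.5).

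lin-14 (WBGene00003003, X, 11465560 to 11485871, plus strand), the nuclear factor that specifies the earliest larval fates, was covered with many moderate regions. It had 12 pooled regions, from 9.36 to 19.7, the most of any member and 5.50 per 10 kb. The highest lay in an intron 8708 bp downstream and scored 19.7, with 9.46 in replicate 2 and no region of replicate 1 at the summit. A region 106 bp upstream of the 5′ end scored 14.6, again with replicate 2 alone (9.38). Only 2 of the 12 were held by both replicates, with 8.67 and 4.30 at 7117 bp and 5.96 and 9.46 at 8912 bp. The region at 8912 bp, of 12.5 pooled, overlapped the highest one and had the same replicate 2 score. Overlapping regions were counted as separate regions.

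**Figure D2:**
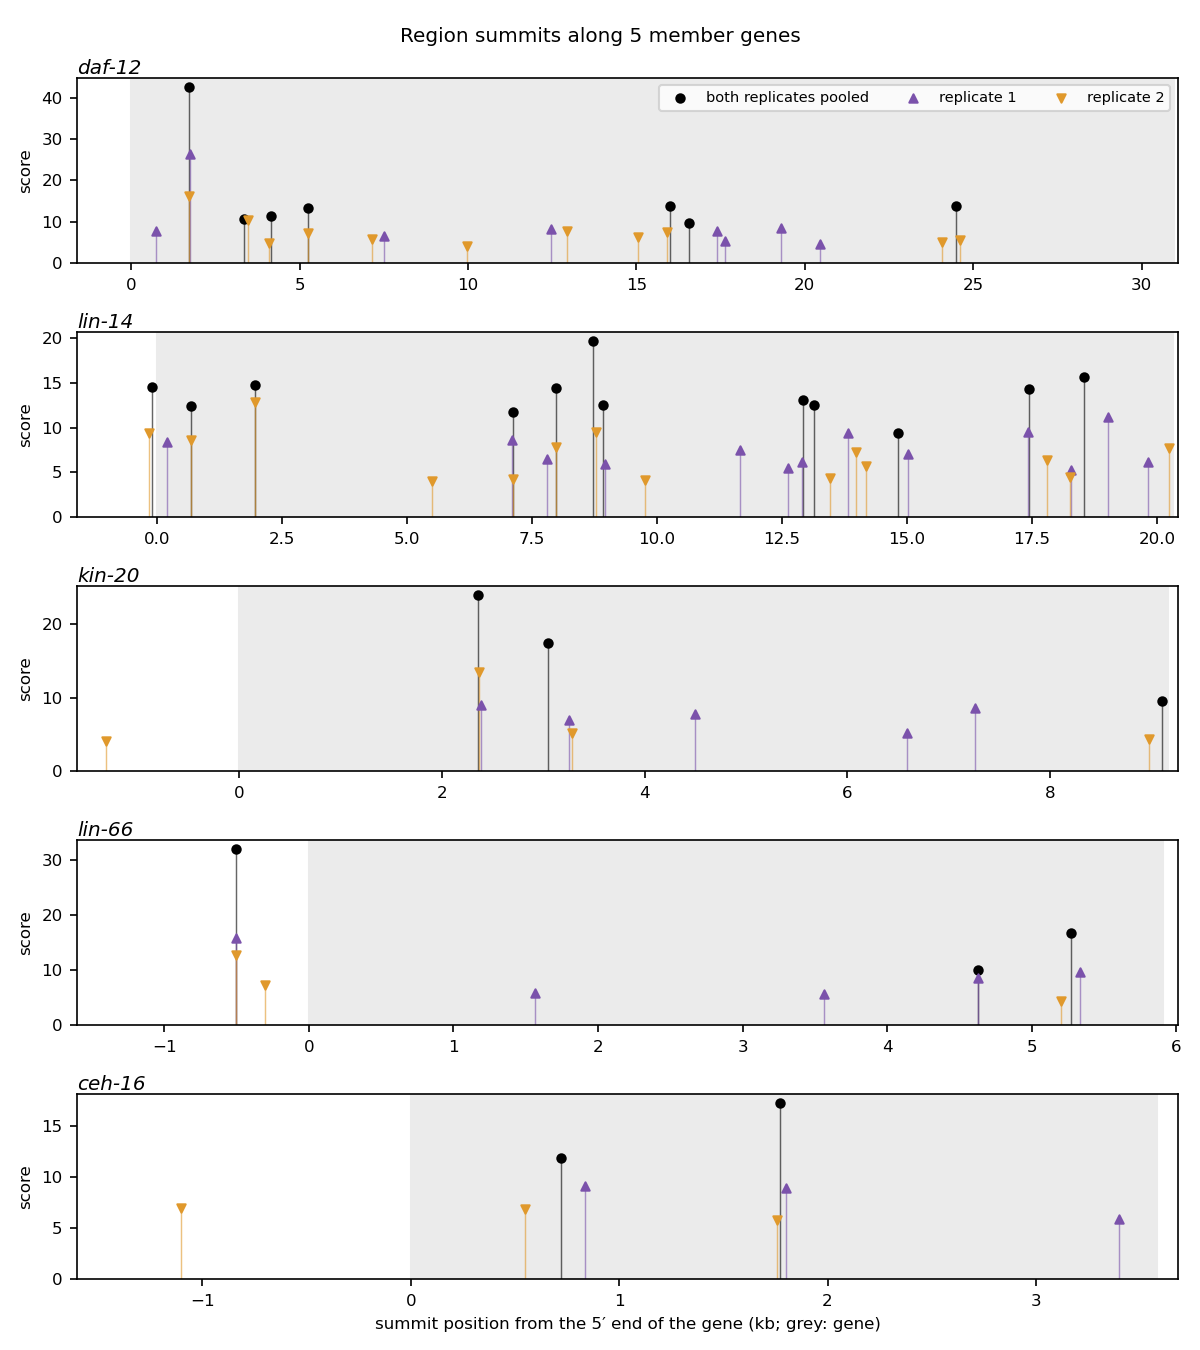
Region summits along daf-12, lin-14, kin-20, lin-66 and ceh-16, by distance from the 5′ end (kb, grey marks the gene) and score, for the pooled list (circles) and replicates 1 and 2 (triangles). At daf-12 and lin-66 the highest summits of all 3 lists coincide, whereas the 12 pooled regions of lin-14 are spread over the gene at scores of up to 19.7.

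The remaining heterochronic genes had regions of ordinary score in the pooled list. lin-42, the Period homologue whose product cycles with the molts, had 7 regions with a highest score of 16.5, in an intron, which replicate 1 listed at 7.38 and replicate 2 did not. lin-29, the zinc finger gene of the adult switch, had 6 with a highest of 16.4 in coding sequence, listed by replicate 2 alone at 11.9. lin-46, which encodes a gephyrin-like protein, had 1 region of 16.4, listed at 12 in replicate 1 and 3.97 in replicate 2. That region lay in the 3′ UTR, and the nearest 5′ end, 443 bp away, was that of pnn-1. dre-1, which encodes an F-box protein that targets BLMP-1 for degradation, had 4 regions up to 13.7. lin-28, the RNA-binding protein gene, had 1 region of 12.4 at 525 bp upstream, which also lay in the window of F02E9.7. hbl-1, the hunchback homologue central to L2 fates, had 2 regions, of 10.7 and 9.70, below the median of the pooled list. The hbl-1 region of 9.70, at 1299 bp upstream, scored 11.5 in replicate 1, percentile 93.4 of that list, and replicate 2 listed none. The 3 genes best known for setting L2 fates thus differed in score, with lin-14 at 19.7, lin-28 at 12.4 and hbl-1 at 10.7. At none of these summits did both replicates list a region, although both held a weaker region that overlaps the highest of lin-14.

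Among the epidermal transcription factor genes, 9 of 14 (64.3%) had a pooled region and 1 (7.14%) reached the top 10%, against 51.3% and 9.03% of all genes. ceh-16 (WBGene00000439, III, 8622735 to 8626314, plus strand), the engrailed homologue of seam cells, scored 17.3 in an intron 1774 bp downstream, with 8.98 in replicate 1 and 5.80 in replicate 2. At 17.3 it only just entered the top 10%. blmp-1, the Blimp-1 homologue and itself a timing gene of the epidermis, scored 16.7 at 1179 bp upstream, with 9.32 and 6.56 in the replicates. elt-6 and egl-18 are neighbouring GATA factor genes that keep seam cells from fusing. elt-6 scored 16.3 in coding sequence, with 6.45 and 8.60, and egl-18 had 5 intronic regions up to 15.5, where the replicates scored 7.44 and 5.67. Their windows overlap by 1364 bp and share 0 summits. elt-1, the GATA gene that specifies epidermis in the embryo, had 1 intronic region of 16.2, listed by replicate 1 alone at 9.71.

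Other factors of this group were lower or unlisted. grh-1, the Grainyhead homologue, reached 13.1 and lin-26, needed for epithelial character, 12.6. rnt-1, the Runx gene, reached 11.3 and its partner bro-1 10.1, both below the list median. elt-3, nhr-25, nhr-23, nhr-73 and nhr-74 had no pooled region. Of these nhr-23 and nhr-25, nuclear receptors of the molting cycle, had replicate regions of up to 7.57 in replicate 1 and 5.85 in replicate 2, and of up to 7.12 and 7.41. nhr-74, a further nuclear receptor gene, was at 9.99 in replicate 1 (percentile 87.5) and 6.11 in replicate 2. elt-3, an epidermal GATA gene, was at 6.38 and 6.32, and nhr-73 had no region in any list.

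The cuticle genes among the members had few regions. None of the 6 collagen genes dpy-7, dpy-10, rol-6, sqt-1, sqt-3 and bli-1 had a pooled region. Of 7 further cuticle collagen genes, grouped after their values were seen, 4 had one, dpy-9 (13.8), dpy-13 (13.2), bli-2 (12.2) and dpy-8 (10.8), which is 57.1% against 51.3% of all genes. In replicate 1, where 66.5% of all genes had a region, 2 of the 6 were listed, at 4.94 (dpy-10) and 5.98 (sqt-1), both below that list's median of 6.62. In replicate 2, 4 of the 6 were listed, from 4.26 to 7.55, near the 66.3% of all genes, and bli-1 was in neither list. The 6 genes are short, with a median window of 2.95 kb, against 3.53 kb for all genes. Of the hedgehog-related genes, wrt-2 had a pooled region of 13.4 at 1042 bp upstream, listed by replicate 2 alone at 8.40. Its relatives wrt-1 and wrt-10 had no pooled region, with up to 7.92 in replicate 1 (wrt-1) and 8.25 in replicate 2 (wrt-10). The long genes ajm-1, which encodes a junction protein, and vab-10, which encodes spectraplakins, had 4 and 9 pooled regions. Their highest scores were 15.1 (8.23 and 5.35 in the replicates) and 16.3 (replicate 2 alone, 6.69). One ajm-1 region, of 14.7, overlapped 2 tRNA genes, and no vab-10 region was held by both replicates. che-14, a gene of apical secretion related to Dispatched, reached 13.2.

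The number of regions was also set against gene length. Epidermal windows had 1.61 pooled regions per 10 kb (38 regions in 236 kb), heterochronic windows 3.18 (48 in 151 kb) and all genes 2.01. The 1200 genes with a window of at least 10.7 kb had 2.38. By role, the epidermal density was 2.08 at transcription factor genes, 0 at collagens and 0.999 at hedgehog-related genes. It was 1.49 at the junction, membrane and cytoskeleton genes. These include vab-10 (1.52) and ajm-1 (1.24), whose windows are the longest of the epidermal group. Without lin-14 the heterochronic density was 2.79, and without any other single gene it lay between 3.14 and 3.46. In the list of replicate 1 the densities were 2.84, 4.17 and 3.03 for epidermal, heterochronic and all genes. In the list of replicate 2 they were 3.01, 3.78 and 2.99. The heterochronic value was thus the highest in each list, whereas the epidermal value lay below that of all genes in the pooled list and near it in the replicates. When the list of replicate 2 was reduced to as many regions as the pooled list, the densities were 2.21 (epidermal) and 2.39 (heterochronic), against 2.01 for all genes. With each region counted only for the gene of the nearest 5′ end, they were 1.19 and 2.05, against 1.39 for all genes.

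**Figure D3:**
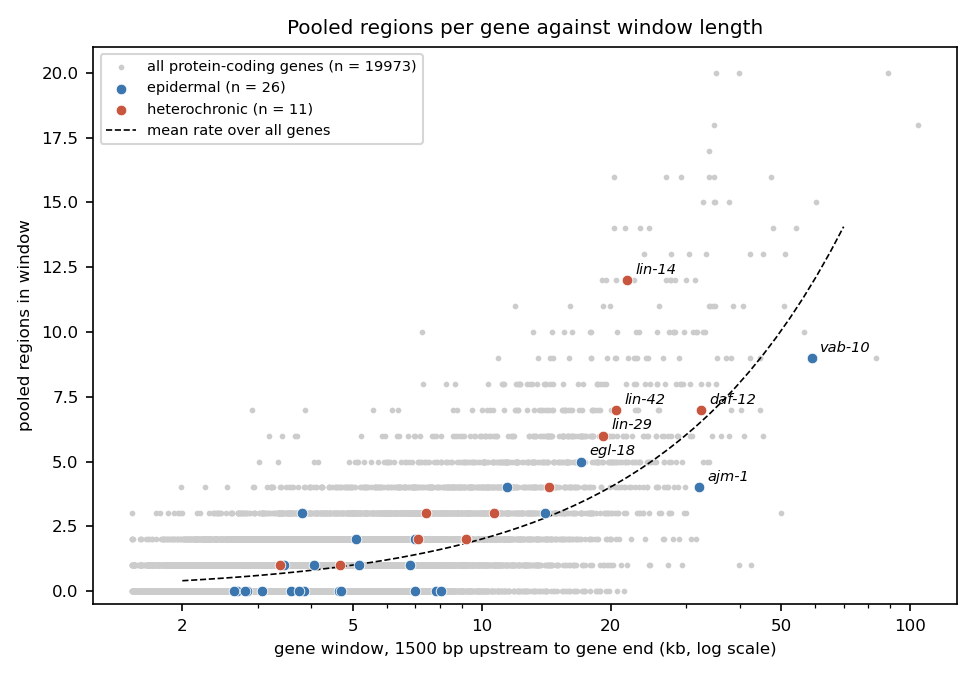
Pooled regions per gene (vertical axis) against window length in kb (horizontal log axis) for all 19973 protein-coding genes (grey), 26 epidermal genes (blue) and 11 heterochronic genes (red); the dashed line is the mean rate over all genes. lin-14, with 12 regions, lies above the line, and vab-10 (9) and ajm-1 (4) lie below it.

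Most member regions lay inside the genes, not upstream. In the 1500 bp upstream, which have the same length in all genes, 4 of 26 epidermal genes (15.4%) and 5 of 11 heterochronic genes (45.5%) had a pooled region, against 29.7% of all genes. A region of the top 10% lay upstream of 0 epidermal genes and 2 heterochronic genes, lin-41 and lin-66, against 5.27% of all genes. A thresholded peak lay upstream of lin-41 alone, against 0.911% of all genes. Among genes with a window of at least 10.7 kb these upstream shares were 38.3%, 8.33% and 1.33%. Introns held 24 of 38 epidermal regions (63.2%) and 34 of 48 heterochronic regions (70.8%), against 42.6% for all genes. The upstream part makes up 16.5% of epidermal and 10.9% of heterochronic windows against 31.7% for all genes. Per 10 kb, the gene bodies held 1.73 epidermal, 3.2 heterochronic and 1.88 regions over all genes, and the upstream parts 1.03, 3.03 and 2.28. In 10 of 38 epidermal and 17 of 48 heterochronic regions the nearest 5′ end was that of another gene. The X chromosome carried 4 of the 11 heterochronic genes, with 24 of their 48 regions in 72.1 of 151 kb of window. Their density of 3.33 per 10 kb was near that of the whole group, 3.18, and above the 1.83 of all X-linked genes. Of the 24 regions, 12 were those of lin-14, at 5.50 per 10 kb. The density was 2.16 at daf-12 and 2.81 at each of hbl-1 and kin-20. The 5 X-linked epidermal genes had 5 regions, or 0.939 per 10 kb.

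Both replicates held member regions about as often as all regions, but the balance between replicates differed. A region of both replicates held the summit of 10 of 38 epidermal pooled regions (26.3%) and 10 of 48 heterochronic ones (20.8%), against 25.3% of all nuclear pooled regions. Replicate 1 alone held 8 and 13, replicate 2 alone 17 and 18, and neither held 3 and 7. Over all 20201 regions, replicate 1 alone held 7171, replicate 2 alone 5496 and neither 2416. In all, replicate 1 held 47.4% of epidermal, 47.9% of heterochronic and 60.8% of all regions. Replicate 2 held 71.1%, 58.3% and 52.5%. By gene, 8 of 26 epidermal (30.8%) and 7 of 11 heterochronic genes (63.6%) had at least 1 region held by both, against 19.6% of all genes and 56.6% of genes with a window of at least 10.7 kb. Where both replicates listed a region, the median ratio of replicate 1 to replicate 2 was 1.37 (epidermal, range 0.726 to 2.16) or 1.5 (heterochronic, 0.630 to 3.02), against 1.20 for all regions. For each replicate, its 188 highest nuclear regions stood in for a thresholded set, and the count depended on the replicate. Among the 188 highest nuclear regions of replicate 1, 2 heterochronic genes had a summit, and among those of replicate 2, 0 had one. A summit of these sets lay at 1.09% and 1.10% of all genes. In the pooled list 13 epidermal genes had a region, and in lists of the same length 18 (replicate 1) and 21 (replicate 2) had one. A region of the top 10% of these lists lay at 2 and 1 epidermal genes, against 9.06% and 8.88% of all genes. In the whole lists, 19 (73.1%) and 22 (84.6%) epidermal genes had a region, against 66.5% and 66.3% of all genes.

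**Figure D4:**
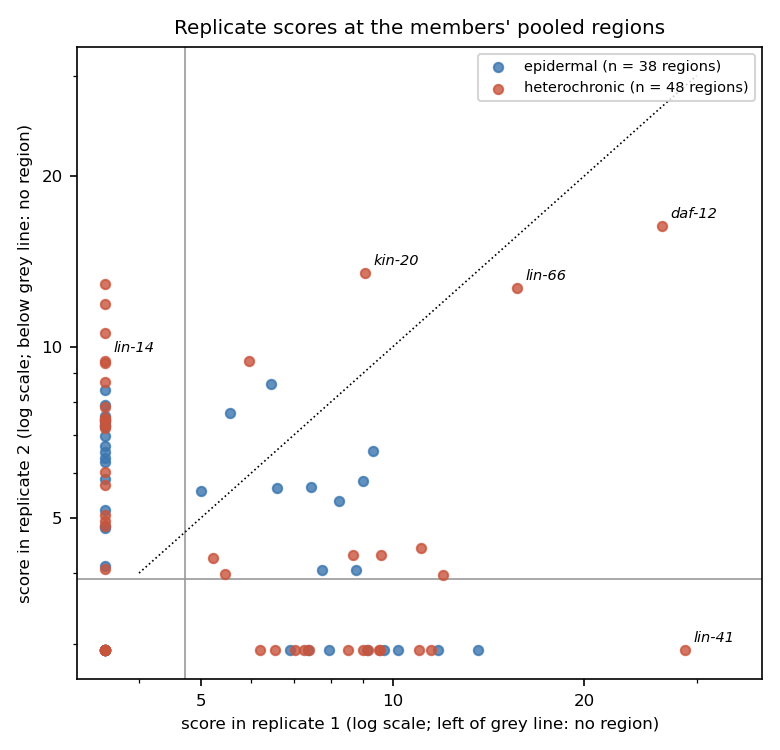
Score in replicate 1 (horizontal) and replicate 2 (vertical, both log axes) at the 86 pooled regions of the members; points left of or below the grey lines had no region in that replicate, and the dotted line marks equal scores. At their highest summits, daf-12 and lin-66 were listed in both replicates, lin-41 in replicate 1 alone and lin-14 in replicate 2 alone. A weaker region that overlaps the highest of lin-14 was listed in both.

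Further genes of both pathways were listed beside the members. They were chosen with earlier results of these data known, so their shares are no independent support. Of 27 other epidermal genes of junctions, cell fusion, apical matrix and cuticle, 15 (55.6%) had a pooled region, 2 (7.41%) one of the top 10% and 0 a thresholded peak, near the 51.3%, 9.03% and 1.12% of all genes. The 2 were hmp-2, the beta-catenin of adherens junctions (20.7, with 9.48 and 7.64 in the replicates), and hmr-1, the cadherin (17.8, with 10.4 and 6.81). The hmp-2 summit lay 1360 bp upstream of that gene, and 180 bp from the 5′ end of K05C4.7. Of 12 other heterochronic protein-coding genes, 11 (91.7%) had a pooled region, 6 one of the top 10% and 1 a thresholded peak (8.33%), which are higher shares than over all genes. That gene was puf-9, a Pumilio-family gene, with 93.6 pooled, 53.6 in replicate 1 and 30.5 in replicate 2 at 330 bp upstream, a place that also lies in the window of dct-11. It was followed by ain-1, a GW182 homologue of the microRNA silencing complex (28.0, with 25.1 in replicate 1 and none in replicate 2), and nhl-2, a TRIM-NHL cofactor of microRNAs (23, with 11.4 and 14.1). The nhl-2 summit lay 801 bp upstream, nearer to tag-340. The Makorin gene lep-2 (19.1, also in the window of egrh-2), sop-2 (17.8), and the nuclear receptor gene nhr-85 (17.4, also in the window of npr-14) were lower. The density of these 12 genes was 3.51 per 10 kb, and of the other epidermal genes 1.65. Their median windows were 7.43 and 5.38 kb, against 3.53 kb for all genes. Among microRNA genes of the pathway, lin-4 had a highest pooled region of 11.3, let-7 of 11.6 and mir-48 of 11.9, beside a list median of 11.7. mir-241 was lower, and mir-84 had none.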

How the data were processed

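Regions were analysed as deposited on ce11. Per the text notes among the deposited files, each replicate, and both together, had regions called by the authors against a control, and the thresholded set came from these lists by irreproducible discovery rate. No aligner, caller, version or threshold is named there or in the labels. The deposited score is the authors' signal value per region, and the deposited summit offset gave each summit. The ce10 lists were not used. Gene positions came from Ensembl release 115 (WBcel235, the coordinates of ce11), and sequence and microRNA symbols from RefSeq. 0 regions passed a chromosome end.

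Members and lists were chosen with earlier results of these data known. All 37 members were found. Full values are given for members with a thresholded peak and for the 8 epidermal and 5 heterochronic genes of highest pooled score. Genes of the further lists are named where they hold a thresholded peak or a region of the top 10%, and the microRNA genes are named in addition. A replicate was said to list or hold a pooled region when its own region contained the pooled summit. Counts use every gene whose window holds a summit. No test was made, since there was 1 group and no contrast. The assignment was tested on simulated data. Alternatives covered the window, nearest genes, the upper share, the match between replicates and each replicate alone. Python 3.11.15, numpy 2.4.6, pandas 2.3.3 and matplotlib 3.10.9 were used.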

Additional observations from a re-analysis of the deposited data

How the results depend on the processing

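With 500 bp upstream, 1 heterochronic gene kept a thresholded peak and 3 had a region of the top 10%. The summit of lin-41, 1469 bp upstream, was outside this window, and that of lin-66, 505 bp upstream, was only just outside it. The epidermal median of the highest score per gene, 15.1 over the 13 genes with a region, was 14.2 with 500 bp. It was 14.3 with 3000 bp. With regions given only to the nearest 5′ end it was 14.2, the heterochronic median rose from 16.5 to 18.1, and the densities were 1.19 (epidermal) and 2.05 (heterochronic) per 10 kb. The upper 5% of the list had 0 epidermal and 4 heterochronic genes, and the upper 25% had 7 and 8. The share over all genes was not computed at these limits, so the counts cannot be set against a background and are not interpreted. The median ratio of replicate 1 to replicate 2 was 1.42 and 1.82 with summits within 100 bp, and 1.32 and 1.36 with any overlap of regions. From 1 replicate alone, the densities were 1.82 to 2.21 (epidermal) and 2.39 to 3.11 (heterochronic). The medians, on the replicates' lower score scale, were 7.41 to 7.84 and 11.2 to 11.9. Genes with a region numbered 18 to 21 and 9 to 11, and with one of the top 10% 1 to 2 and 5. Genes with a summit among the 188 highest nuclear regions of the replicate numbered 0 and 0 to 2. Over all genes these shares were 53.5% to 53.8%, 8.88% to 9.06% and 1.09% to 1.10%. From replicate 2 alone, 80.8% of epidermal and 81.8% of heterochronic genes had a region. The cause of these shifts was not tested where none is given. Of 68 alternative values, 44 stayed within 1.5 times (counts) or within the spread of the replicates. No paired analysis was possible because there is 1 group. Depth is unknown, so how far it limits the genes without a region was not assessed.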
